A study of Mus musculus with 16 samples.

Results

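The Zfp genes are the mouse genes whose symbol is Zfp followed by a number, most of which encode zinc finger proteins. They were chosen from the deposited count table by symbol and by a mean of at least 5 CPM (counts-per-million, each count scaled by the library total) over the 12 RNA-seq libraries. Of 34573 gene symbols in the table, 371 had such a name after 1 name ending in -ps was dropped, and 237 reached the threshold. Of the other 134, 13 had no count in any library and 81 had enough counts to be tested. The threshold used the mean over every library, so a gene high in a single state could pass. By state means, 217 of the 237 reached 5 CPM in all 4 states, 2 in Tn alone and 6 in all 3 activated states but not in Tn. Just inside the threshold were Zfp473 at 5.07 CPM, Zfp882 at 5.08 and Zfp867 at 5.16, and just outside it were Zfp870 at 5.00, Zfp873 at 4.97 and Zfp518b at 4.89.

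The study profiled CD8+ T cells of C57BL/6 mice during activation in culture. Tn were naive cells isolated from spleen with a kit and sorted as CD8+, CD44- and CD62L+ at day 0. All other cells were activated with antibodies to CD3e and CD28, each at 10 µg/ml, and received recombinant IL-2 at 300 U/ml after the first night. Teff1 were CD8+, PD-1+ and TIM-3- cells at day 2, Teff2 were sorted with the same markers at day 5, and Tex were CD8+, PD-1+ and TIM-3+ cells at day 5. PD-1 and TIM-3 are inhibitory receptors, so the state named Tex is a gate on a short culture and not a sort from a chronic infection or tumour. Each state had 3 libraries from 200000 cells each. Whether the 3 libraries of a state stem from different mice or wells is not in the labels, and the spread behind each p-value may thus be technical.

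Most Zfp proteins bind DNA through tandem C2H2 zinc fingers. Many of them also carry a KRAB domain, which recruits the corepressor TRIM28 and, through it, histone methylation and heterochromatin proteins. Such genes lie in tandem clusters that arose by duplication, and much of the repression they direct falls on transposable elements. The symbol also covers unrelated proteins. ZFP36, ZFP36L1 and ZFP36L2 have CCCH fingers that bind AU-rich elements of mRNA and bring in the CCR4-NOT deadenylase. In T cells, these factors limit cytokine mRNA and hold back activation.

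Library totals ran from 14668884 to 21162206 counts. The 5 defining CD8 T cell markers (Cd8a, Cd8b1, Cd3d, Cd3e and Cd3g) summed to 2517 to 3989 CPM in Tn and 1773 to 2226 in the activated libraries, all 5 being detected in every state. Markers of other spleen cells were higher in Tn. The 7 B cell markers, all detected in Tn, summed to 1243, 580 and 2125 CPM in Tn replicates 1, 2 and 3, against 90.8 to 291 in the activated libraries, where Pax5 was at 0 at day 5. The 4 MHC class II markers summed to 1374, 112 and 2147 CPM in Tn and to 29.0 to 123 elsewhere, and the 7 macrophage markers to 63.0 to 267 in Tn and at most 1.39 elsewhere, with 4 of them (C1qa, C1qb, C1qc and Marco) at 0 in Teff2. The 5 erythroid markers summed to 73.3 to 159 CPM in Tn and at most 7.45 elsewhere. The 5 NK cell markers summed to 43.2 to 180 in Tn and 11.7 to 74.7 elsewhere, with Klra8 at 0 in Teff1 and Teff2 and Ncr1 at 0 in Teff2. The part of these cells in the differences from Tn was not tested, and each main count is therefore also given with Tn replicate 2 as the only naive library. In bulk RNA, fewer cells of a type and less RNA per cell cannot be told apart.

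After activation, Zfp genes were more often lower than higher. In the 3 Tn libraries the levels of the 237 genes, without TMM scaling, summed to 10739, 11056 and 11139 CPM. The sums were 8330, 7595 and 6518 CPM in Teff1, 7979, 6571 and 7032 in Teff2, and 7502, 6104 and 6551 in Tex. All 9 activated libraries therefore lay below all 3 naive ones. Without Zfp36l2 the ranges still did not overlap, with 8823 to 9618 CPM in Tn and 5872 to 8000 CPM in the activated libraries. The median gene of the 237 lay 0.27 to 0.57 log2 units below the naive mean in the 9 activated libraries, whereas in those libraries the median of the 10093 genes at 5 CPM or more lay above the naive mean.

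**Figure D1:**
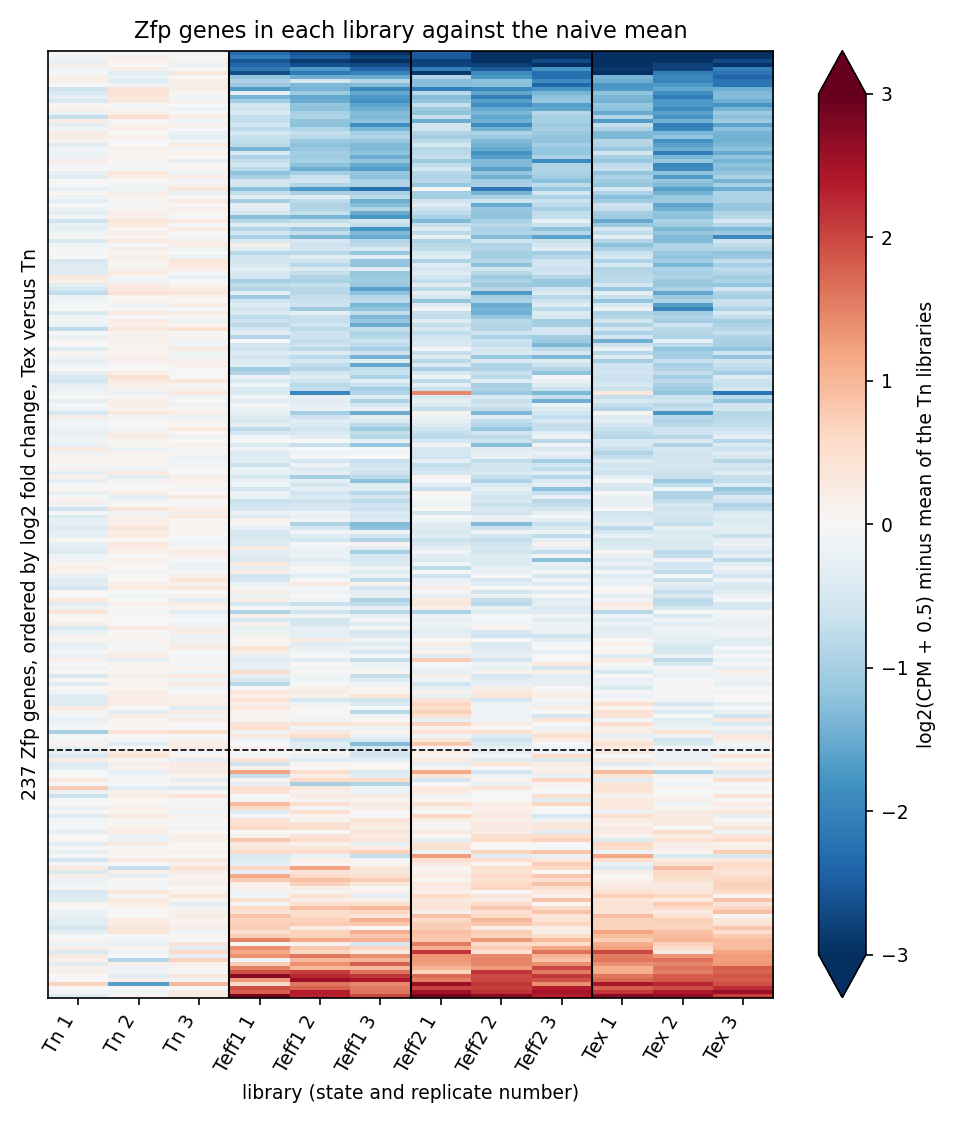
Heat map of the 237 Zfp genes (rows, ordered by log2 fold change of Tex against Tn) in the 12 libraries (columns), coloured by log2(CPM + 0.5) minus the mean of the 3 Tn libraries, with the scale ending at 3 log2 units in each direction. Blue rows above the dashed line mark the 175 genes with a negative fitted log2 fold change in Tex, and the colours of Teff1, Teff2 and Tex resemble each other more than those of Tn.

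Each comparison was tested with edgeR's quasi-likelihood F test over all 14332 genes with enough counts, and a gene was called at a Benjamini-Hochberg adjusted p under 0.05. In Teff1 against Tn, 77 of the 237 Zfp genes were lower (32.5%) and 21 were higher (8.86%). Among the genes at 5 CPM or more, 23.1% were lower and 30.6% higher, and among all genes tested both shares were 24.5%. The median log2 fold change was -0.40 for the Zfp genes, 0.09 for genes at 5 CPM or more and -0.06 for all genes tested. In Teff2 against Tn, 85 Zfp genes were lower (35.9%) and 19 higher (8.02%), against 22.7% and 30.3% of genes at 5 CPM or more and 23.3% and 25.6% of all genes tested. In Tex against Tn, 98 were lower (41.4%) and 19 higher (8.02%), against 24.2% and 32.1% of genes at 5 CPM or more and 25.6% and 27.3% of all genes tested. The medians were -0.40 and -0.50, against 0.11 and 0.12 for genes at 5 CPM or more. These 3 comparisons share the Tn libraries and are not independent. A single test over the 4 states called 101 Zfp genes (42.6%), against 53.5% of genes at 5 CPM or more and 50.1% of all genes tested.

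Of the called genes, 76 of the 77 lower and all 21 higher in Teff1 had no overlap between the 3 libraries of each state. The calls rest on these same libraries, so the separation is not further support for them. The like share among all called genes is not given, so the separation is not a trait of Zfp genes. Among the 217 genes at 5 CPM or more in every state, 74 were lower and 16 higher in Teff1, and 91 were lower and 15 higher in Tex. Of all genes at a mean of 5 CPM or more, 23.1% were lower and 30.6% higher in Teff1, and 24.2% and 32.1% in Tex. A fitted fall of at least 1 log2 unit in Teff1 was found for 33 of the 237 Zfp genes and for 1376 of the 10093 genes at 5 CPM or more, which are like shares, and a rise of that size for 10 and 1943. With Tn replicate 2 as the only naive library, 29 genes were lower (12.2%, against 11.1% of genes at 5 CPM or more) and 11 higher (4.64%, against 13.1%) in Teff1. The share of falls was then near the background, and the share of rises was below it. In that setting 36 genes were lower in Teff2 (15.2%, against 12.1%) and 64 in Tex (27.0%, against 14.6%). Without Teff1 replicate 3, the library with the lowest summed level of its state, 44 genes were lower in Teff1 (18.6%, against 17.3%), and without Teff2 replicate 2, 46 were lower in Teff2 (19.4%, against 16.6%).

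**Figure D2:**
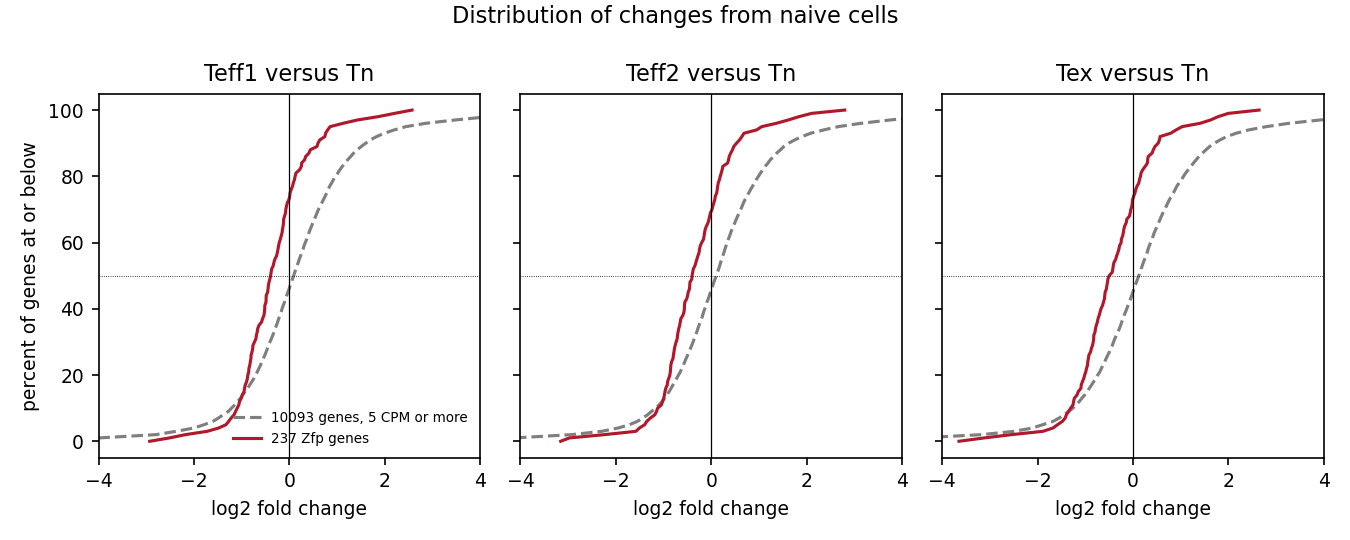
Cumulative distributions of the fitted log2 fold change (x axis) for the 237 Zfp genes (red, solid) and the 10093 genes at 5 CPM or more (grey, dashed), for Teff1, Teff2 and Tex against Tn; the y axis gives the percent of genes at or below each value. At the 50 percent line the Zfp genes sit at -0.40, -0.40 and -0.50, and the other curve at 0.09, 0.11 and 0.12.

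The 3 CCCH mRNA decay genes, Zfp36, Zfp36l1 and Zfp36l2, fell in every activated state (3 of 3 lower against Tn in each comparison, with median log2 fold changes of -2.27, -2.33 and -2.49 in Teff1, Teff2 and Tex). The share lower among genes at 5 CPM or more was 23.1%, 22.7% and 24.2% in these states. Zfp36l2 (chr17:84183924-84187947, mm10) had 1868, 1717 and 1435 CPM in Tn, 325, 268 and 253 in Teff1, 245, 238 and 182 in Teff2, and 196, 246 and 217 in Tex. Every naive library stood far above every activated one. The means were 1674 ± 220 CPM in Tn and 282 ± 37.9 in Teff1 (SD, n = 3), and the fitted fold was 5.94-fold lower (log2 -2.57, SE 0.186, adjusted p = 4.61e-06, edgeR).

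Zfp36, which encodes tristetraprolin, had 218, 174 and 278 CPM in Tn, 34.5, 50.2 and 54.5 in Teff1, 28.9, 58.6 and 45.6 in Teff2, and 22.0, 51.3 and 46.5 in Tex. Its naive and activated libraries did not overlap, and its level was 4.82-fold lower in Teff1 (log2 -2.27, SE 0.348, adjusted p = 0.000334, edgeR). Zfp36l1 had 171, 155 and 194 CPM in Tn, 80.4, 67.3 and 70.2 in Teff1, 70.5, 71.8 and 33.6 in Teff2, and 51.6, 51.7 and 37.7 in Tex. Its fall was the smallest of the 3, 2.39-fold in Teff1 (adjusted p = 0.00188) and 3.70-fold in Tex (adjusted p = 0.000139), with no overlap of naive and activated libraries. The call in Teff1 was lost with Tn replicate 2 as the only naive library.

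In Teff1, the partners of these proteins in mRNA decay were called at shares near the background. Of 21 genes of the CCR4-NOT deadenylase, the decapping machinery and their cofactors, 5 were higher and 4 lower in Teff1 against Tn. Among genes at 5 CPM or more, 30.6% were higher and 23.1% lower. In Tex, 2 of the 21 were higher and 6 lower, against 32.1% and 24.2%, so the share of rises was below the background. The median log2 fold changes were 0.11 in Teff1 and -0.06 in Tex. Btg1 and Btg2, antiproliferative cofactors of the deadenylase, fell by 1.44 and 1.83 log2 units in Teff1. The helicase Ddx6 and the deadenylase subunit Cnot6l fell by 0.77 and 0.43, while the poly(A) binding protein gene Pabpc1 rose by 0.71.

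**Figure D3:**
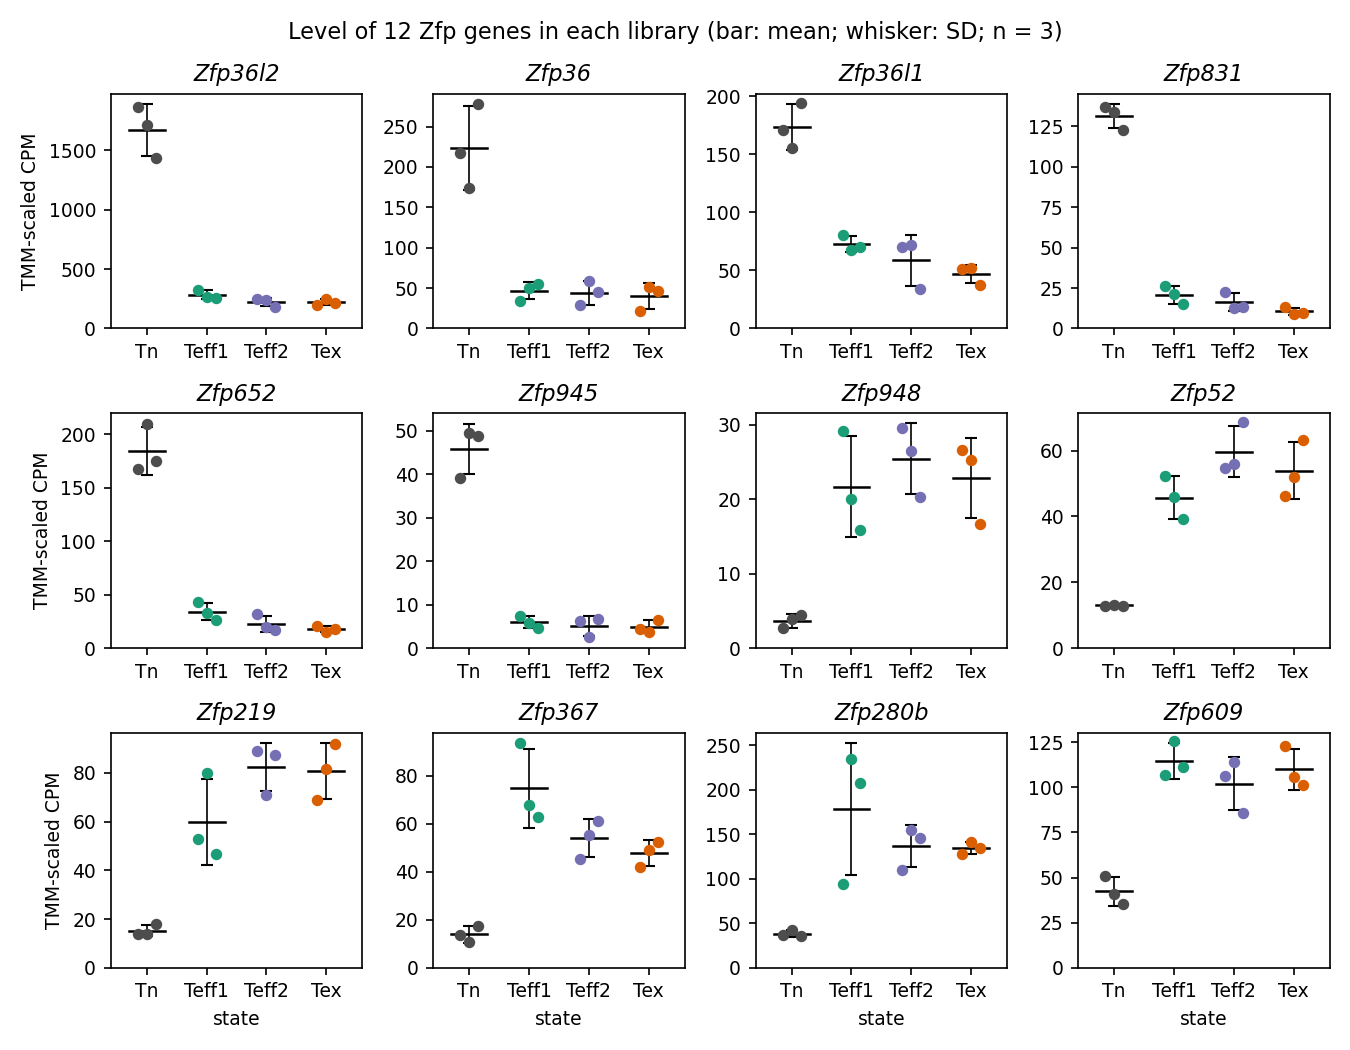
TMM-scaled CPM (y axis, linear and from 0) of 12 Zfp genes in each library of the 4 states (x axis), with the mean as a bar and the SD as a whisker (n = 3). The first 6 panels hold genes that were lower in every activated state and the last 6 hold genes that were higher; in each panel no activated library overlaps the naive ones.

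Of 3 genes listed as lymphocyte-restricted, Zfp831 and Zfp318 fell in every activated state, and Zfp683, which encodes Hobit of resident memory T cells, was under the threshold at 3.38 CPM. The share lower among genes at 5 CPM or more was 23.1%, 22.7% and 24.2% in Teff1, Teff2 and Tex. Zfp831 (chr2:174598682-174710832) had 137, 134 and 123 CPM in Tn, 26.0, 21.5 and 14.9 in Teff1, 22.7, 12.8 and 13.5 in Teff2, and 13.2, 9.07 and 9.26 in Tex. The naive libraries stood far above the rest, and the level was 6.32-fold lower in Teff1 (log2 -2.66, SE 0.272, adjusted p = 2.72e-05, edgeR) and 12.5-fold lower in Tex (log2 -3.65, SE 0.285, adjusted p = 3.83e-06). Zfp318, a transcriptional regulator known in B cells for IgD expression, had 104, 71.1 and 107 CPM in Tn, 48.5, 66.0 and 51.3 in Teff1, 37.6, 39.1 and 24.8 in Teff2, and 33.1, 23.0 and 20.3 in Tex. It was 1.70-fold lower in Teff1 (adjusted p = 0.0223) and 3.70-fold lower in Tex (adjusted p = 0.00012). The naive libraries highest for Zfp318, replicates 1 and 3, were also those with the higher B cell sums. With Tn replicate 2 alone, the log2 fold change was -0.38 in Teff1 (adjusted p = 0.452, edgeR) and -1.50 in Tex (adjusted p = 0.0100). The call in Teff1 was also lost without any 1 of Tn replicates 1 and 3 and Teff1 replicates 1 and 3.

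Zfp652 and Zfp945 fell as far. Zfp652 (chr11:95749067-95764715), a partner of the corepressor CBFA2T3, had 168, 210 and 176 CPM in Tn, 43.1, 33.1 and 26.6 in Teff1, 31.5, 19.4 and 16.7 in Teff2, and 20.8, 14.7 and 17.8 in Tex. It was 5.39-fold lower in Teff1 and 10.4-fold lower in Tex (adjusted p = 3.73e-05 and 4.64e-06, edgeR). Zfp945 (chr17:22846697-22867309) had 39.1, 49.4 and 48.8 CPM in Tn and 2.51 to 7.42 CPM in the 9 activated libraries. Its fall of 2.93 log2 units in Teff1 (SE 0.355, adjusted p = 8.03e-05) was the largest of any Zfp gene called in that comparison. Zfp354c went from 19.1, 23.5 and 20.2 CPM in Tn to 2.36 to 6.08 in the activated libraries, 4.43-fold lower in Teff1 and 6.51-fold lower in Tex (adjusted p = 0.000348 and 7.74e-05). Zfp945 and Zfp354c met the 5 CPM threshold largely through the Tn libraries. Their place among the falls thus follows in part from the choice of genes.

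These genes followed each other closely. Over the 12 libraries, on log2 CPM, the Zfp gene most like Zfp831 was Zfp652 (Pearson r = 0.993), followed by Zfp36l2 (0.968) and Zfp236 (0.960). For Zfp36l2 it was Zfp652 (0.972), then Zfp831 and Zfp945 (0.950), and for Zfp36 it was Zfp36l2 (0.919), then Zfp110 (0.910) and Zfp354c (0.897). The libraries fall into a naive and an activated cluster, so these values describe mainly the step between them.

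The 6 largest rises in Teff1 against Tn were those of Zfp948, Zfp367, Zfp280b, Zfp473, Zfp219 and Zfp52. Zfp948 and Zfp473 were under 5 CPM in every Tn library and met the threshold only through the activated states. Their place among the rises thus follows in part from the choice of genes. Zfp948 (chr17:21565816-21589324) had 2.65, 3.88 and 4.40 CPM in Tn, 29.1, 20.0 and 15.9 in Teff1, 29.6, 26.4 and 20.3 in Teff2, and 26.6, 25.3 and 16.7 in Tex. It was 5.94-fold higher in Teff1 (log2 2.57, SE 0.303, adjusted p = 6.63e-05, edgeR). Zfp219, a partner of the transcription factor SOX9, had 14.0, 13.8 and 17.9 CPM in Tn, 52.7, 79.9 and 46.7 in Teff1, 89.0, 71.1 and 87.2 in Teff2, and 69.1, 81.8 and 92.0 in Tex. Its naive libraries lay below all others, and it was 3.92-fold higher in Teff1 and 5.31-fold higher in Tex (adjusted p = 4.96e-05 and 1.09e-05).

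Zfp367 had its highest values at day 2. It had 13.5, 10.8 and 17.5 CPM in Tn, 93.6, 67.9 and 62.6 in Teff1, 45.4, 55.4 and 60.9 in Teff2, and 41.8, 49.2 and 52.3 in Tex. It was 5.35-fold higher in Teff1 than in Tn (adjusted p = 1.55e-05, edgeR), and the log2 difference of -0.47 between Teff2 and Teff1 did not pass the test (adjusted p = 0.415), although those libraries did not overlap. Zfp280b had 36.8, 42.8 and 35.5 CPM in Tn and 94.7, 234 and 208 in Teff1, where replicate 1 lay well below the others, and was 4.66-fold higher (adjusted p = 0.000108). Zfp473, whose protein takes part in histone pre-mRNA processing with the U7 snRNP, had 1.85, 1.50 and 1.56 CPM in Tn and 7.66, 8.46 and 6.12 in Teff1, 4.52-fold higher (adjusted p = 0.00107). Zfp608, a regulator of Rag gene expression in thymocytes, was called at day 5 only: its Tn libraries had 10.8, 1.77 and 13.8 CPM, its Teff1 libraries 10.0, 21.1 and 18.8, its Teff2 libraries 41.9, 31.3 and 18.4, and its Tex libraries 38.7, 34.7 and 26.8. The naive and Teff1 libraries overlapped, while Tex stood 3.77-fold above Tn (adjusted p = 0.0132). The call in Teff2 (adjusted p = 0.0201, edgeR) was lost without Teff2 replicate 1 and in a fit of only the 2 groups compared. The naive library lowest for Zfp608, replicate 2, was also the one with the lowest B cell sum, and the part of those cells was not tested.

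Partners of corepressor and chromatin complexes fell in 5 of 8 cases in each activated state and rose in 1, with median log2 fold changes of -0.68, -0.80 and -0.93 against Tn in Teff1, Teff2 and Tex. Among genes at 5 CPM or more, 23.1%, 22.7% and 24.2% were lower in these states and 30.6%, 30.3% and 32.1% higher. Zfp592 and Zfp687, which form a complex with ZMYND8, were 1.58-fold and 1.86-fold lower in Teff1 (adjusted p = 0.00646 and 0.00259, edgeR). Zfp592 had 191, 192 and 175 CPM in Tn, 131, 127 and 95.3 in Teff1, 104, 90.3 and 77.0 in Teff2, and 87.8, 83.0 and 70.7 in Tex. Its naive libraries lay above all activated ones. Zfp217, a partner of the LSD1 and CoREST demethylase complex, had 118, 173 and 150 CPM in Tn and 85.3, 88.1 and 67.2 in Teff1 (1.83-fold lower, adjusted p = 0.0147). Zfp644, which recruits the methyltransferases G9a and GLP, went from 51.8 ± 5.99 CPM in Tn to 31.8 ± 7.80 in Teff1 and 24.4 ± 6.71 in Tex (SD, n = 3), and Zfp518a from 48.0 ± 5.94 to 26.4 ± 8.73 and 17.9 ± 3.72. The Teff1 calls of Zfp592, Zfp217, Zfp644 and Zfp518a were lost with Tn replicate 2 alone, and those of the last 3 also without Teff1 replicate 3. Those of Zfp217 and Zfp644 were also lost without Tn replicate 2, that of Zfp644 without Tn replicate 3, and those of Zfp644 and Zfp518a without Teff1 replicate 2.

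Zfp609 went the other way. This gene, whose protein binds the cohesin loader Nipbl and the Integrator complex, had 50.8, 40.8 and 35.4 CPM in Tn, 107, 126 and 111 in Teff1, 106, 114 and 85.8 in Teff2, and 123, 106 and 102 in Tex. Every activated library was above every naive one, with a 2.70-fold rise in Teff1 (log2 1.43, SE 0.173, adjusted p = 7.68e-05, edgeR) and a 2.60-fold rise in Tex. Zfp516 and Zfp827, the remaining 2 of the 8, did not pass in any comparison, with log2 fold changes of -0.25 and -0.06 in Teff1.

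Of 6 activators of promoters and GC-rich sites, 3 fell and 1 rose in Teff1, against 23.1% and 30.6% of genes at 5 CPM or more. Zfp335, needed for the maintenance of naive T cells, had 88.8, 71.0 and 74.9 CPM in Tn, 38.6, 40.0 and 37.4 in Teff1, and 45.2, 36.6 and 40.1 in Tex. The naive and activated libraries did not overlap, and it was 2.03-fold lower in Teff1 (adjusted p = 0.000337, edgeR). Zfp148 and Zfp384 were 1.40-fold and 1.30-fold lower in Teff1 (adjusted p = 0.0195 and 0.0348). In Tex they were 1.77-fold and 1.51-fold lower (adjusted p = 0.000942 and 0.00327). Both Teff1 calls were lost without Tn replicate 1 and without Teff1 replicate 3, that of Zfp148 also without Tn replicate 2, and that of Zfp384 without most other single libraries. With Tn replicate 2 alone, only the Tex call of Zfp148 was kept among these 4. Zfp410, an activator of Chd4, was 1.32-fold higher in Teff1 (adjusted p = 0.0350) and did not pass at day 5, and this call was lost without any 1 of the Tn libraries and without Teff1 replicate 1 or 2. Zfp143 and Zfp281 did not pass in any comparison.

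Of 6 genes for RNA metabolism, 1 was higher and 0 lower in Teff1, and 1 was higher and 1 lower in Tex. Of 3 genes for ubiquitin and SUMO pathways and mitosis, 1 was higher and 0 lower in each of these states. The shares among genes at 5 CPM or more were 30.6% higher and 23.1% lower in Teff1, and 32.1% and 24.2% in Tex. Zfp207, which encodes the kinetochore and spindle protein BuGZ, had 108, 164 and 153 CPM in Tn, 228, 242 and 244 in Teff1, 232, 243 and 219 in Teff2, and 222, 225 and 185 in Tex. It was 1.68-fold higher in Teff1 (adjusted p = 0.0032, edgeR). Zfp106, an RNA-binding protein, rose from 135 ± 9.56 CPM in Tn to 242 ± 34.2 in Teff1 and 197 ± 16.8 in Tex (SD, n = 3; adjusted p = 0.00122 and 0.0129). Neither of these genes passed in any activated state with Tn replicate 2 alone, and the Tex call of Zfp106 was also lost without Tn replicate 3. Zfp326, a component of a complex that couples elongation to splicing, was at 36.2 ± 6.20 CPM in Tn and 34.4 ± 0.707 in Teff1, and was lower in Tex, at 23.6 ± 1.89 (1.54-fold, adjusted p = 0.00653), a call lost with Tn replicate 2 alone. The ribosome-collision ubiquitin ligase Zfp598, the ribosome maturation factor Zfp622, the double-stranded RNA-binding Zfp346, the splicing factor Zfp830, the ubiquitin ligase Zfp91 and the SUMO ligase Zfp451 did not pass in any comparison, with log2 fold changes between -0.34 and 0.32 in Teff1.

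**Figure D4:**
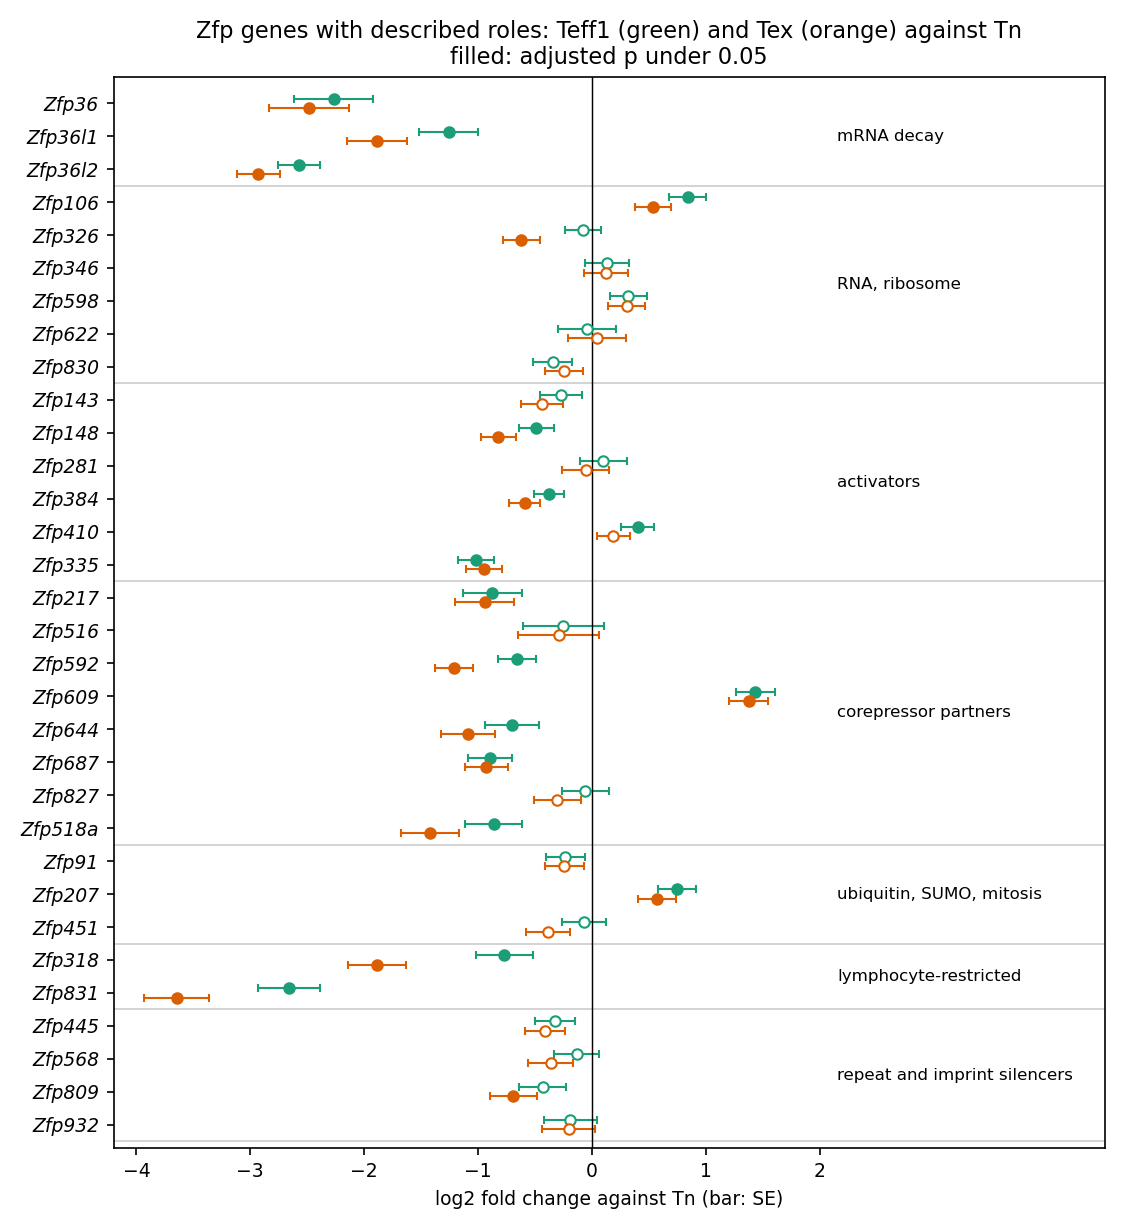
Fitted log2 fold change against Tn (x axis, bars are SE) of the 32 Zfp genes of the role lists, for Teff1 (green) and Tex (orange), with filled points at an adjusted p under 0.05. The mRNA decay genes lie between -1.26 and -2.93, the repeat and imprint silencers between -0.13 and -0.69, and Zfp609, Zfp106 and Zfp207 are filled on the right in both states.

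Of 4 KRAB zinc finger genes with a known silencing target, none was called in Teff1 or Teff2 and 1 was lower in Tex. Among genes at 5 CPM or more, 23.1%, 22.7% and 24.2% were lower in Teff1, Teff2 and Tex. With 4 genes, these counts cannot be told apart from those shares. Zfp809, which silences murine leukaemia virus elements, had 20.5, 23.7 and 24.8 CPM in Tn, 16.4, 17.8 and 16.9 in Teff1, and 18.1, 11.6 and 13.2 in Tex. It was called in Tex only (1.61-fold lower, adjusted p = 0.015, edgeR), and this call was lost without Tn replicate 3, without Tex replicate 2 or 3, and with Tn replicate 2 alone. Zfp445, a guardian of imprinted loci, had log2 fold changes of -0.32 in Teff1 and -0.41 in Tex (adjusted p = 0.145 and 0.0686), and Zfp568 and Zfp932 did not pass in any comparison. Zfp57 and Zfp708 were under the threshold, at 0.058 and 4.13 CPM.

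The machinery that KRAB proteins recruit was more often higher than lower after activation, as were genes at 5 CPM or more in general (30.6% higher and 23.1% lower in Teff1, 32.1% and 24.2% in Tex). Of 26 genes for TRIM28, SETDB1, heterochromatin proteins, the NuRD deacetylase, DNA methylation and the HUSH silencing complex, 15 were higher and 4 lower in Teff1 against Tn, with a median log2 fold change of 0.53, and 12 were higher and 5 lower in Tex, with a median of 0.38. Trim28 went from 254 ± 21.4 CPM in Tn to 464 ± 87.3 in Teff1 and 396 ± 109 in Tex (SD, n = 3; adjusted p = 0.0101 and 0.0385, edgeR). The maintenance methylation genes Uhrf1 and Dnmt1, which are expressed in dividing cells, rose by 4.85 and 1.72 log2 units in Teff1. Atf7ip, the partner of SETDB1, and Chd3, a NuRD remodeller, fell by 1.84 and 1.64 log2 units in Teff1 and by 2.07 and 2.91 in Tex.

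Many Zfp genes lie in clusters. With neighbours joined across gaps of at most 200 kb, 76 of the 237 lay in 13 clusters of 4 or more, 45 in pairs or trios and 116 alone, and chromosome 7 held 57 of them. In Teff1 against Tn, 24 of the 76 in clusters were lower (31.6%), 20 of the 45 in pairs or trios (44.4%) and 33 of the 116 lying alone (28.4%). Rises were called in 5 (6.58%), 1 (2.22%) and 15 (12.9%) of these, and among genes at 5 CPM or more 23.1% were lower and 30.6% higher. The difference between these arrangements was not tested. The following clusters were described after their values had been seen. Among 8 neighbouring genes on chromosome 13 (chr13:67312985-67683512, mm10), 7 (Zfp595, Zfp953, Zfp429, Zfp874b, Zfp87, Zfp748 and Zfp738) were lower in Tex against Tn, by 0.77 to 1.42 log2 units. Zfp874a, the remaining gene of these, had a log2 fold change of -0.93 that did not pass (adjusted p = 0.111, edgeR). The Tex calls of Zfp87 and Zfp748 were lost without any 1 of Tn replicates 2 and 3 and Tex replicates 2 and 3, and that of Zfp748 also without Tex replicate 1. That of Zfp87 was also lost without Teff1 replicate 2 or Teff2 replicate 2, and that of Zfp748 without Teff2 replicate 2.

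In a cluster on chromosome 17 (chr17:21383707-21725636), adjacent genes went in opposite directions. In the order of the chromosome these are Zfp677, Zfp54, Zfp51, Zfp53, Zfp52, Zfp948 and Zfp760. Zfp53 (chr17:21488934-21533201) had 47.3, 70.3 and 49.7 CPM in Tn, 23.4, 27.2 and 24.5 in Teff1, 30.0, 24.2 and 28.3 in Teff2, and 23.8, 23.6 and 23.9 in Tex. Zfp52 (chr17:21533725-21563362), the next gene, had 12.9, 13.2 and 12.9 CPM in Tn, 52.2, 45.7 and 39.2 in Teff1, 54.6, 56.0 and 68.5 in Teff2, and 46.3, 52.0 and 63.3 in Tex. Neither gene had overlapping naive and activated libraries: Zfp53 was 2.23-fold lower in Teff1 (log2 -1.16, SE 0.177, adjusted p = 0.000334, edgeR) and Zfp52 was 3.51-fold higher (log2 1.81, SE 0.175, adjusted p = 1.9e-05). Zfp948, next along, rose as given above, Zfp51 and Zfp677 fell by 0.58 and 1.18 log2 units in Teff1, and Zfp54 did not pass. Zfp760 passed in Teff2 alone (log2 1.59, adjusted p = 0.0252), with overlapping libraries, and this call was lost without Tn replicate 1 or 2 or Teff2 replicate 1 or 3. The Teff1 call of Zfp51 was lost without Tn replicate 2 or 3 or Teff1 replicate 3, and with Tn replicate 2 alone. These genes are close in sequence and the counting settings are not given in the sources used here, so reads shared between copies make their values uncertain. The same holds for genes whose annotated spans overlap, such as Zfp595 and Zfp953, and for antisense genes, since it is not stated that the counting used strand.

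The promoters of the 3 adjacent genes are shown because their levels parted at activation, and that of Zfp945 because it had the largest fall at day 2. Each sequence gives the 250 bases before an annotated transcript start in RefSeq (GRCm38.p6), 5′ to 3′ on the gene's strand, with capitals at matches to the searched motifs. Zfp53 has its start near the gene's first base, at chr17:21488738-21488987 on the plus strand, while the starts of Zfp52 (chr17:21535289-21535538, plus) and Zfp948 (chr17:21566728-21566977, plus) lie 1814 and 1162 bases inside the annotated gene. The sequence of Zfp945 is at chr17:22867135-22867384 on the minus strand.
Zfp53: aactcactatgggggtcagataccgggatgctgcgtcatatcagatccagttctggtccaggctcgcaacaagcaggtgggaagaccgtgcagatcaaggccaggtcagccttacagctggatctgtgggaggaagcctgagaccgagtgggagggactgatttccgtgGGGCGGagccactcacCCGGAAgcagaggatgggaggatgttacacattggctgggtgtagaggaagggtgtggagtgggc
Zfp52: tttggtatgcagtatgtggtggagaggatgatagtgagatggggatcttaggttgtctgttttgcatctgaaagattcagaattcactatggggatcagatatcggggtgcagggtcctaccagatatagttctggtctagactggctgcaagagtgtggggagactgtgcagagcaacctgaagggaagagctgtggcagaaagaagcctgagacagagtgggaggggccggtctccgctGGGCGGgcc
Zfp948: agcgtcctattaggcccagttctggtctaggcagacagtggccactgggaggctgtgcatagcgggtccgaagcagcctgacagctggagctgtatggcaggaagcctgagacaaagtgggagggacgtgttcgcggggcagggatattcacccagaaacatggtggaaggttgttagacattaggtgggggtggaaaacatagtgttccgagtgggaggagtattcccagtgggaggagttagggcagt
Zfp945: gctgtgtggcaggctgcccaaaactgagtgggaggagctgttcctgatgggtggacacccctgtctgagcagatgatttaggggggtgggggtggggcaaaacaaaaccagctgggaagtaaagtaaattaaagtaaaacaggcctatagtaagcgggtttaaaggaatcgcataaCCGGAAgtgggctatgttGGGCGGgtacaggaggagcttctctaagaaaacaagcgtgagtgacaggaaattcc
The capitals are the GC box GGGCGG in Zfp53, Zfp52 and Zfp945 and the ETS core CCGGAA in Zfp53 and Zfp945. None of the 4 windows holds the NRF1 core GCATGCG, the YY1 core ATGGCGG, the E-box CACGTG or TATAAA, and Zfp948 has no match to any motif searched.

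Of the 237 genes, 201 matched an entry of the RefSeq promoter table, with 252 promoters of 300 bases (the 250 above and the 50 after the start). On either strand, CCGGAA was in 38.5% of them, against 30.5% of 10017 promoters of genes at 5 CPM or more and 14.9% of all 32851 promoters. GGGCGG was in 50.8%, against 64.9% and 35.7%, and ATGGCGG in 10.7%, against 9.06% and 4.05%. GCATGCG was in 6.75%, CACGTG in 6.75% and TATAAA in 7.94%, against 7.04%, 10.5% and 6.56% of genes at 5 CPM or more. Among promoters of Zfp genes lower in Tex against Tn, CCGGAA was in 30 of 100 (30.0%) and GGGCGG in 52 (52.0%), and among those of genes higher in Tex in 4 of 22 (18.2%) and in 14 (63.6%).

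Between day 2 and day 5 no Zfp gene was called. In Teff2 against Teff1, 0 of 237 passed in either direction in edgeR, with 14 at an unadjusted p under 0.05, against 0.565% higher and 0.129% lower among genes at 5 CPM or more (0.558% and 0.112% of all genes tested). DESeq2 called 1, Zfp629, and limma 0. The median log2 fold change was -0.03 for the Zfp genes and for genes at 5 CPM or more. Zfp831 and Zfp652 had log2 fold changes of -0.35 and -0.60 between these states (adjusted p = 0.696 and 0.361). Among Zfp genes under the CPM threshold, Zfp768 was called, with mean levels of 1.19, 1.72, 5.56 and 6.55 CPM in Tn, Teff1, Teff2 and Tex.

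Tex and Teff2, both from day 5, differ by the TIM-3 gate. In the fit over all libraries, 0 of 237 Zfp genes passed, with 2 at an unadjusted p under 0.05 and 0 in DESeq2, against 0.00991% of genes at 5 CPM or more higher and 0 lower (0.00698% and 0 of all genes tested). Libraries of Tex and Teff2 with the same replicate number deviated together, and in a fit within these pairs 2 Zfp genes were lower (0.844%) and 0 higher, against 0.866% and 0.965% of genes at 5 CPM or more (0.725% and 0.962% of all genes tested), so the share of falls was at the background. Zfp831 had 22.7, 12.8 and 13.5 CPM in Teff2 and 13.2, 9.07 and 9.26 in Tex, lower within each pair and 1.54-fold lower in the fit (log2 -0.62, SE 0.123, adjusted p = 0.0447, edgeR). Zfp292 had 96.4, 94.4 and 83.4 CPM in Teff2 and 71.6, 68.9 and 67.9 in Tex, also lower in each pair and without overlap, 1.32-fold lower (log2 -0.40, SE 0.0760, adjusted p = 0.0382). Zfp292 had already been 1.68-fold lower in Teff1 than in Tn (adjusted p = 0.00268). Without replicate 1 the paired fit called 7 Zfp genes lower and 1 higher, without replicate 2 it called 3 lower, and without replicate 3 none. The shares over all genes in these fits are not given. Whether Zfp genes stood out in them therefore cannot be said.

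Differences between Tex and Teff2 were small but leaned one way. Of the 237, 95 were lower in Tex in all 3 pairs (40.1%) and 25 higher in all 3 (10.5%), against 18.2% and 23.8% of genes at 5 CPM or more. The median log2 difference over Zfp genes was -0.08, -0.11 and -0.09 in pairs 1, 2 and 3, against 0.02, 0.01 and 0.03 over genes at 5 CPM or more. The 5 NK markers (Ncr1, Klrb1c, Klre1, Klra8 and Eomes) summed to 45.0 to 74.7 CPM in Tex and 23.1 to 41.3 in Teff2. Of these, Ncr1 and Klra8 were at 0 in Teff2, so its sum came from the others. The part of these markers in the difference was not tested.

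**Figure D5:**
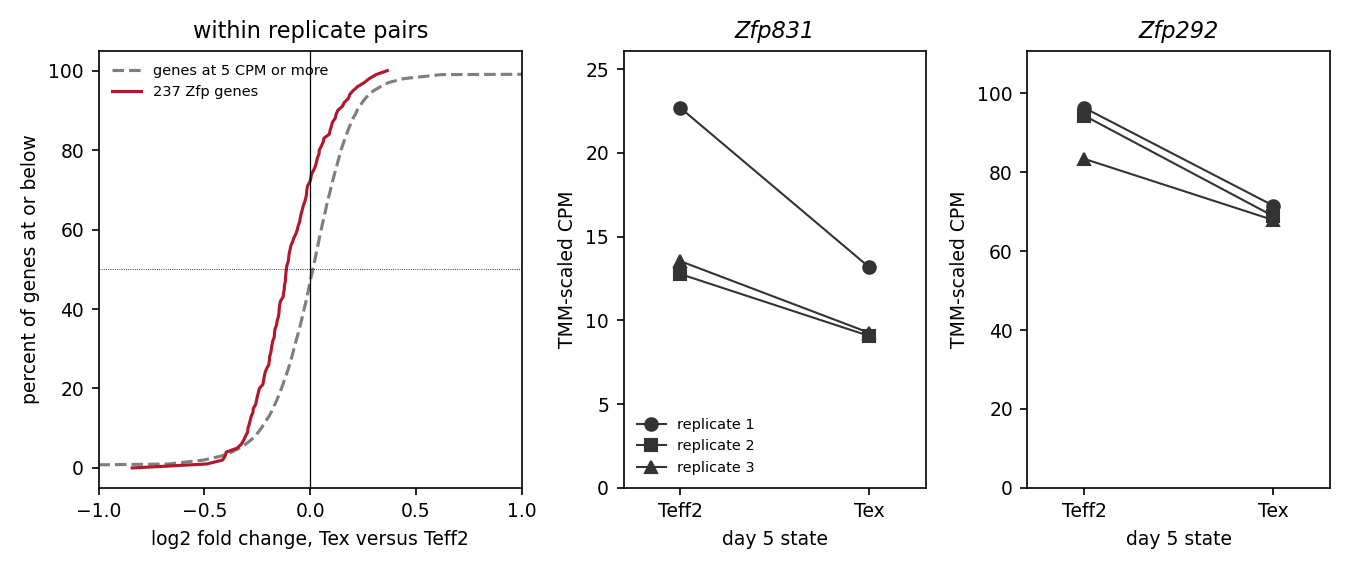
Left, cumulative distribution of the fitted log2 fold change of Tex against Teff2 within replicate pairs for the 237 Zfp genes (red) and genes at 5 CPM or more (grey, dashed), where the medians are -0.11 and 0.01. Right, TMM-scaled CPM (y axis from 0) of Zfp831 and Zfp292 with a line for each replicate number, all of which go down from Teff2 to Tex.

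Replicates also differed within states. The median Zfp gene in replicate 1 stood 0.23, 0.20 and 0.14 log2 units above the mean of replicates 2 and 3 in Teff1, Teff2 and Tex and 0.18 below it in Tn, while the medians over genes at 5 CPM or more were between -0.04 and -0.01. Without replicate 1 of the 3 activated states, no call against Tn of a gene named here reversed. Those lost were, outside the chromosome 13 and 17 clusters, Zfp318 in Teff1 and Zfp148 and Zfp326 in Teff2, and 8 calls of genes in those clusters.

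Zbtb genes were called at shares like those of the Zfp genes. Of 31 Zbtb genes at 5 CPM or more, whose proteins pair a BTB domain with C2H2 fingers, 11 were lower (35.5%) and 2 higher (6.45%) in Teff1 against Tn and 13 (41.9%) and 3 (9.68%) in Tex. Of 12 Zscan and Zkscan genes, 2 were lower and 2 higher in Teff1, and of 16 Zc3h genes, which have CCCH fingers, 5 were lower and 5 higher, where 23.1% and 30.6% of genes at 5 CPM or more were. Of 81 tested Zfp genes under 5 CPM, 20 were lower (24.7%) and 5 higher (6.17%) in Teff1, and 19 and 12 in Tex. The difference between families was not tested.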

How the data were processed

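Gene-level RNA-seq was analysed for 12 libraries, 3 in each of 4 states. The values are raw counts per gene that the authors deposited, made with HISAT2 and HTSeq on mm10, per the submitters' processing notes, which also name DESeq2. Versions, annotation and strand settings are not given in the sources used here. A second deposited table, in log2 units, was used only as an alternative. The 4 Hi-C samples and the protein classes of the Zfp genes were not analysed here.

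Genes were filtered with filterByExpr, scaled by TMM and tested over all 4 states in 1 model with edgeR 4.0.16 (R 4.3.3), by the quasi-likelihood F test with Benjamini-Hochberg adjustment and a threshold of 0.05. Fold changes are log2 with their SE. CPM per library are TMM-scaled, except for the membership rule and the summed CPM of Zfp genes and of markers. No transcript lengths were used, so sums of CPM and the choice of the highest genes by mean CPM weight genes by transcript length as well as by level. The chi-square check found no library deposited as a duplicate.

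In Tex and Teff2, libraries with equal replicate numbers deviated together (correlations of 0.806, 0.716 and 0.666 over genes), so a fit with the replicate block on these 6 libraries (13096 genes) is given beside the main one. In the other comparisons the numbers did not pair the libraries.

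The members and lists were chosen with earlier results of these data known. The genes named are those of the role lists, the 5 largest non-overlapping rises and falls per comparison, those called between Tex and Teff2, the 3 with the highest mean CPM, those beside the threshold, and the closest in pattern. Outside this rule, the genes of the clusters on chromosomes 13 and 17, Zfp629, Zfp768 and the list genes under the threshold are named, the cluster genes, Zfp629 and Zfp768 having been chosen after their values were seen. The 3 with the highest mean were Zfp36l2, Zfp106 and Zfp207. Names were matched to RefSeq (GRCm38.p6): 237 of 237, of which 11 under older symbols, and 201 with promoters.

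On simulated counts for 14332 genes in Teff1 against Tn, the test recovered 18% of genes changed by 1 log2 unit and 66% of those changed by 2. Far fewer genes were changed there than were called in the data (48.9% of all genes tested), so these rates need not hold for the data. Alternatives (27 in all) were other scalings and filters, the replicate block, each library left out, doubtful libraries removed, DESeq2 1.42.0, limma 3.58.1 and other CPM thresholds.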

Additional observations from a re-analysis of the deposited data

How the results depend on the processing

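Counts below are of the 237 Zfp genes. They are given without the share over all genes and describe only how the calls moved with the setting. With Tn replicate 2 as the only naive library, which is then assumed to vary like the other states, higher and lower calls against Tn were 11 and 29 in Teff1, 11 and 36 in Teff2, and 12 and 64 in Tex, and 30 genes varied over the 4 states. Leaving out each library in turn gave 16 to 21 higher and 44 to 78 lower in Teff1, 16 to 21 and 46 to 86 in Teff2, 17 to 21 and 75 to 101 in Tex, and 69 to 104 varying; the lowest counts of falls came without Teff1 replicate 3 and without Teff2 replicate 2. Between Teff2 and Teff1, 1 gene was higher with DESeq2, 1 with replicates 2 and 3 alone, and 1 with a threshold of 1 CPM. With the replicate block, 2 genes were lower in Tex than Teff2, and 0 to 7 lower and 0 to 1 higher when 1 replicate number was left out of that fit (an alternative chosen after seeing the data, as was the block on all 12 libraries, which called 0). In the comparisons where numbers do not pair the libraries, the block gave 23 higher and 86 lower in Teff1, 20 and 99 in Teff2, 23 and 111 in Tex, 115 varying and 0 between Teff2 and Teff1. Upper-quartile scaling moved the median of genes at 5 CPM or more by -0.14, -0.11 and -0.12 in Teff1, Teff2 and Tex against Tn, and dropping the low-count filter moved it by 0.10 in Teff1; under upper-quartile scaling the Zfp median differed from it by -0.48, -0.51 and -0.62, and with limma on the authors' log2 matrix by -0.33, -0.34 and -0.40. Of 92 calls against Tn of genes named by the rule, 62 held in every alternative, 30 were lost in at least 1 and 0 reversed. Of 27 such calls of genes of the chromosome 13 and 17 clusters named outside it, 11 held, 16 were lost in at least 1 (9 of them with Tn replicate 2 alone) and 0 reversed. Of the paired calls of Tex against Teff2, none held without replicate 3. The cause of these changes was not tested. With 3 libraries per state, changes near 1 log2 unit were often missed in simulated counts, where far fewer genes changed than were called in the data.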
